A study of Mus musculus with 2 samples.

Results

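Pericytes and vascular smooth muscle cells, together called mural cells, were picked from single-cell RNA libraries of mouse heart non-cardiomyocytes by the genes they hold. A barcode with at least 500 genes, at least 1000 UMIs (barcoded RNA molecules, each counted once) and at most 15% mitochondrial UMIs was a pericyte member if at least 3 of 7 genes, Kcnj8, Abcc9, Vtn, Rgs5, Notch3, Cspg4 and Higd1b, had a UMI. It was a smooth muscle member if it had at least 2 Myh11 UMIs and at least 5 UMIs of Acta2 and Tagln together. Members had at most 1 UMI of the leukocyte gene Ptprc and the endothelial gene Pecam1 together. The rule found 153 members among 15964 kept barcodes, 95 in the library made after transverse aortic constriction (TAC) and 58 in the sham library. The smooth muscle group held 5 TAC cells and 0 sham cells. All 5 also met the pericyte rule and were kept apart from it, which left a pericyte group of 90 TAC and 58 sham cells.

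Both libraries came from wildtype male C57BL6/J mice on day 20 after surgery. TAC narrows the aorta and raises the pressure that the left ventricle works against, and the other mice were given sham surgery. Ventricles were digested with collagenases and a protease, cardiomyocytes were removed by settling, and living cells were sorted by dye exclusion before droplet capture. There was 1 library per group, and how many hearts entered each is not stated, so no difference here has a replicate check, no test was made, and all intervals cover counting error alone.

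Pericytes lie on capillaries inside the basement membrane that they share with the endothelium, and smooth muscle cells wrap arteries and veins. Endothelial cells recruit pericytes with platelet-derived growth factor B, which acts on the receptor Pdgfrb, and Notch3 holds mural cells in their differentiated state. In the heart, pericytes carry an ATP-sensitive potassium channel made of Kcnj8 and Abcc9 subunits, while smooth muscle cells hold more of the actin, myosin and regulatory proteins of contraction.

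The TAC library held 96003109 UMIs in 8901 barcodes, of which 8000 were kept, and the sham library 42490230 UMIs in 8426 barcodes, of which 7964 were kept. The median kept cell had 11237 UMIs in the TAC library and 4895.5 in the sham library. The 2 libraries shared 15 barcodes, 0 of them members. Levels are UMIs summed over the cells of a group and given per 1000000 UMIs of that group (CPM), with exact Poisson 95% intervals, and ratios use CPM + 1 on the log2 scale unless an interval is given. The pericyte group summed to 538131 UMIs in TAC, with a median of 4667 per cell, and to 227752 UMIs in sham, with a median of 2689.5.

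The genes of the rule were abundant in most members, which describes the choice and is no finding. Rgs5, a brake on G protein signalling, stood at 9044 CPM in TAC and 5027 CPM in sham pericyte members. Kcnj8 stood at 1669 CPM in TAC and 2283 CPM in sham, and its partner subunit Abcc9 at 929 CPM in TAC and 966 CPM in sham. Vtn, which encodes the adhesion protein vitronectin, stood at 1353 CPM in TAC and 909 CPM in sham, and Notch3 at 561 CPM in TAC and 334 CPM in sham. Cspg4, the NG2 proteoglycan, stood at 184 CPM in TAC and 233 CPM in sham, and Higd1b at 452 CPM in TAC and 391 CPM in sham. Over the members low in fibroblast RNA, defined below, Rgs5 stood at 14402 CPM in TAC and 12813 CPM in sham, Kcnj8 at 2772 CPM in TAC and 5735 CPM in sham, and Abcc9 at 1477 CPM in TAC and 2283 CPM in sham. The TAC over sham ratio of Kcnj8 was thus 0.731 over all members and 0.483 over those low in fibroblast RNA. Kcnj8 and Abcc9 were both seen in 76 of the 90 TAC and 49 of the 58 sham cells. At the edge of the rule, the cells with exactly 3 of the genes, 13 in TAC and 13 in sham, held 567 CPM of Rgs5 in TAC and 95 CPM in sham. The cells just outside with 2 of the genes, 134 in TAC and 68 in sham, held 44.9 CPM of Rgs5 in TAC and 38.9 CPM in sham. Another 11 TAC and 2 sham cells had 3 or more of the genes but too many Ptprc and Pecam1 UMIs.

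The pericyte label held for most members and not for all. Members with Pdgfra UMIs, or with Dcn, Lum and Col1a1 above 0.5% of their UMIs, carried fibroblast RNA: 20 of 90 in TAC and 24 of 58 in sham. The other members, 70 in TAC and 34 in sham, are called low in fibroblast RNA below. In these the 7 rule genes made up a median 2.55% of a cell's UMIs in TAC and 2.47% in sham, with ranges of 0.258 to 4.79% in TAC and 1.06 to 4.39% in sham. In the members with fibroblast RNA the medians were only 0.116% in TAC and 0.105% in sham. Their ranges were 0.0167 to 2.15% in TAC and 0.0301 to 2.66% in sham. The members with fibroblast RNA were deeper, with median 10708.5 UMIs in TAC and 6281.5 in sham, against 4315 in TAC and 2052.5 in sham in the members low in it. Over all members the 15 fibroblast markers summed to 22420 CPM in TAC and 45247 CPM in sham. Over the members low in fibroblast RNA they summed to 2927 CPM in TAC, where Pdgfra, Lamc3 and Scara5 were at 0, and to 1598 CPM in sham, where Pdgfra, Smoc2, Lamc3 and Fbln1 were at 0. When all kept cells were clustered, 1 cluster of 88 TAC and 45 sham cells held 83 of the 95 TAC and 44 of the 58 sham members. Of the 12 TAC and 14 sham members in other clusters, 1 TAC and 0 sham cells were low in fibroblast RNA. Among those clusters, the one with most TAC members, 4, held 1296 fibroblasts among 1447 TAC cells. The one with most sham members, 7, held 1215 fibroblasts among 1716 sham cells. A further sham member lay where 890 of 946 sham cells were macrophages. TAC over sham values are therefore given for all pericyte members and for those low in fibroblast RNA, except where a sentence names 1 set, and the part of fibroblast RNA in the differences between them was not tested.

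**Figure D1:**
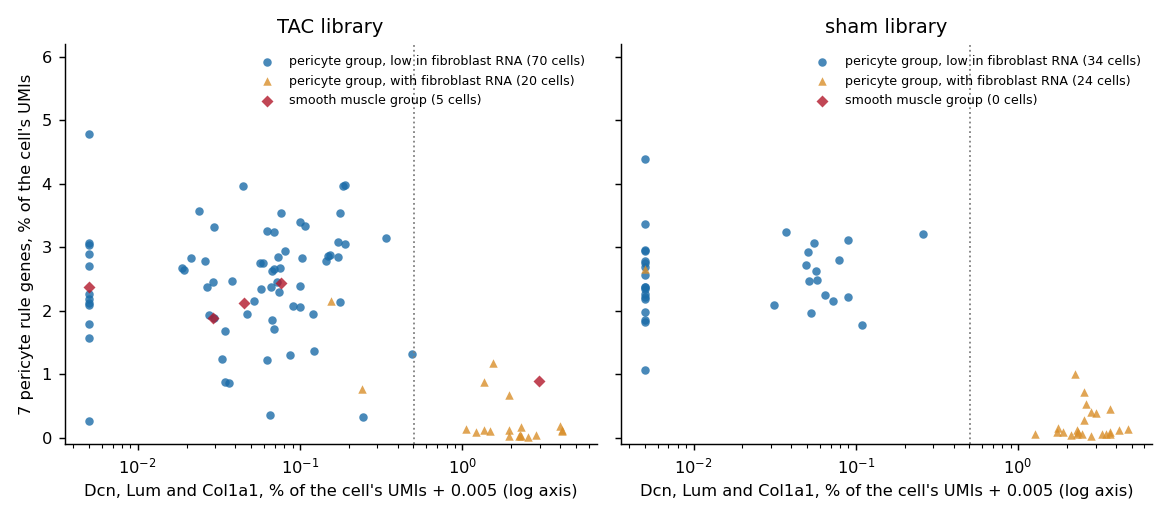
Each point is 1 member, with the TAC library on the left and the sham library on the right. The horizontal log axis is the share of the cell's UMIs from Dcn, Lum and Col1a1 plus 0.005, the vertical axis the share from the 7 pericyte rule genes, and the dotted line marks 0.5%; triangles left of it are members with a Pdgfra UMI. The 70 TAC and 34 sham cells low in fibroblast RNA lie apart from most of the 20 TAC and 24 sham cells that carry it.

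Markers of other cell types were also summed over the members low in fibroblast RNA. The 13 macrophage markers summed to 165 CPM in TAC and 188 CPM in sham, with Cd68, Fcgr1 and Adgre1 at 0 in TAC and Csf1r, Cd68 and Adgre1 among the 8 at 0 in sham. Macrophages themselves held 39386 CPM in TAC and 39059 CPM in sham. The 15 endothelial markers summed to 3985 CPM in TAC and 3479 CPM in sham, most of it Fabp4, against 174 CPM in TAC and 133 CPM in sham fibroblasts and 19332 CPM in TAC and 14224 CPM in sham endothelial cells. In TAC only Vwf and Lyve1 were at 0, Cdh5 and Kdr had 8 UMIs each, and in 1 cell these markers made up 6.54% of the UMIs. In sham 8 of the 15 were at 0, Cdh5 and Kdr among them. The 14 cardiomyocyte markers summed to 82.4 CPM in TAC and 416 CPM in sham, against 290 CPM in TAC and 165 CPM in sham over all other kept cells. The 5 red cell markers summed to 2924 CPM in TAC and 121 CPM in sham, against 1300 CPM in TAC and 473 CPM in sham over all other kept cells, and 1 TAC cell held 564 of the 683 UMIs of the beta-globin gene Hbb-bs. The part of RNA from outside the cell in any result was not tested.

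Pericyte members made up 1.13% of kept TAC cells (95% Clopper-Pearson interval 0.906 to 1.38%) and 0.728% of kept sham cells (0.553 to 0.940%). That share was 1.54 times as high in TAC, with an exact interval of 1.10 to 2.19. The members low in fibroblast RNA made up 0.875% in TAC (0.683 to 1.10%) and 0.427% in sham (0.296 to 0.596%). The direction depended on what the cells were set against. Per 100 endothelial cells there were 9.05 pericyte members in TAC and 24.7 in sham, a ratio of 0.367 (0.261 to 0.519), since the TAC library held 994 endothelial cells and the sham library 235. Per 100 fibroblasts there were 1.88 in TAC and 1.28 in sham, and per 100 macrophages 8.55 in TAC and 4.69 in sham. The rule needs UMIs of several genes. Cells under 3000 UMIs were left out and the others thinned to 3000 UMIs, which kept 7487 TAC and 6962 sham cells. The share was then 3.89 times as high in TAC, from 67 TAC and 16 sham members. Sham members low in fibroblast RNA had a median of 2052.5 UMIs, so most of them were left out. That value is therefore no correction for depth. Shares of captured cells are also set by digestion and sorting, and their part was not tested.

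Genes that the rule did not use marked the members alongside it. Of 30 genes of pericyte identity outside the rule, 25 reached 50 CPM in the members or the fibroblasts of each library. At least 2-fold above the fibroblasts of the same library were 23 of 25 in TAC, where 11% of all 4143 measured genes were, and 24 of 25 in sham, where 10.6% of 4220 were. The median log2 ratio over fibroblasts was 3.59 in TAC and 3.35 in sham. Among members low in fibroblast RNA, 25 of 26 were at least 2-fold above fibroblasts in TAC, where 19.5% of 4389 genes were higher, and 25 of 25 in sham, where 31.3% of 5047 were. Members were chosen on genes that go with these, so the counts describe the cells and test nothing.

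Among the 12 genes that stood highest above fibroblasts in both libraries were Tinagl1, Casq2, Esam, Colec11, Rerg, Sncg, Ednrb, Mcam, P2ry14, Art3 and Olfr558. Colec11, a secreted lectin of the complement system, had the highest CPM of these, at 1186 CPM in TAC and 1027 CPM in sham members. Fibroblasts held 5.19 CPM of Colec11 in TAC and 8.85 CPM in sham. Tinagl1, a matrix glycoprotein, stood at 383 CPM in TAC and 228 CPM in sham members, and endothelial cells held it too, at 331 CPM in TAC and 320 CPM in sham. Casq2, a calcium store protein known from cardiac muscle, stood at 188 CPM in TAC and 220 CPM in sham members. Esam, an adhesion molecule of endothelial junctions, and the endothelin receptor Ednrb were shared with endothelial cells, where Esam stood at 489 CPM in TAC and 416 CPM in sham and Ednrb at 222 CPM in TAC and 290 CPM in sham. P2ry14, a receptor for UDP-sugars, stood at 113 CPM in TAC and 285 CPM in sham members, against at most 13.6 CPM in TAC and 7.33 CPM in sham in the fibroblast, endothelial or macrophage class. Among members low in fibroblast RNA the chloride channel Ano1 entered the 12 in place of P2ry14, at 162 CPM in TAC and 201 CPM in sham.

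The smooth muscle group was 5 TAC cells, and 0 of 7964 kept sham cells met its rule, which allows a share of up to 0.0377%. Their share of kept TAC cells was 0.0625% (0.0203 to 0.146%). The lower end of that interval lies under the sham limit, so a difference in share was not detectable at this depth. The 5 cells had 4180, 4877, 4956, 9782 and 16486 UMIs. In that order their Myh11 UMIs, for the smooth muscle myosin heavy chain, were 2, 17, 10, 2 and 2. Their Acta2 UMIs, for smooth muscle actin, were 11, 53, 53, 76 and 14, and their Tagln UMIs, for the actin-binding protein transgelin, 5, 26, 31, 92 and 14. All had Rgs5, with 61, 103, 82, 158 and 102 UMIs. The 3 cells with the minimum of 2 Myh11 UMIs held all 7 pericyte rule genes, and the others held 5 and 4. For those 3 cells the smooth muscle name thus follows the rule, and their markers go with both groups. Cnn1, the calponin gene that marks mature contractile cells, had no UMI in any of the 5. The deepest cell was called a doublet by Scrublet and held 372 Dcn UMIs, so the group is compared without it, and the list counts and the main ratios are also given with it. With 5 and 0 cells no TAC over sham ratio was made for smooth muscle.

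Without the doublet the 4 smooth muscle cells were set against the 70 TAC pericyte members low in fibroblast RNA. Of 25 contractile genes outside the rule with at least 100 CPM in either group, 22 were at least 2-fold higher in the smooth muscle cells and 1 at least 2-fold lower, while 19.5% of all 2611 measured genes were higher and 17.9% lower. The median log2 ratio of the list was 1.56, against 0.17 over all genes measured. With the doublet in, 12 of 24 were higher and 1 lower, against 13.5% and 15.5% of 2386 genes, and the median was 0.97. The smooth muscle cells were chosen on Myh11, Acta2 and Tagln, genes that go with this list, so the counts describe the cells and test nothing. Myl9, the regulatory light chain of smooth muscle myosin, stood at 3068 CPM in the smooth muscle cells and 729 CPM in the pericyte members, a 4.21-fold ratio (3.19 to 5.51). Tpm1, a tropomyosin, stood at 1891 CPM in the smooth muscle cells and 396 CPM in the pericyte members (4.78-fold, 3.32 to 6.79). Flna, the actin cross-linker filamin A, stood at 672 CPM in the smooth muscle cells and 155 CPM in the pericyte members, and Lmod1, which nucleates actin filaments, at 378 CPM in the smooth muscle cells and 82.4 CPM in the pericyte members. Csrp1, a LIM protein of the actin cytoskeleton, stood at 462 CPM in the smooth muscle cells and 92.3 CPM in the pericyte members. Casq2 was again among the higher genes, at 967 CPM in the smooth muscle cells and 300.0 CPM in the pericyte members. Each of these 6 genes was seen in all 4 cells. With the doublet in, the ratios were 2.86-fold for Myl9, 3.33-fold for Tpm1, 2.88-fold for Flna, 3.31-fold for Lmod1, 2.96-fold for Csrp1 and 2.32-fold for Casq2.

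The potassium channel genes went the other way. Kcnj8 stood at 294 CPM in the 4 smooth muscle cells, from 7 UMIs, and at 2772 CPM in the 70 pericyte members, a 0.106-fold ratio (0.0425 to 0.220). Abcc9 stood at 168 CPM in the smooth muscle cells, from 4 UMIs, and at 1477 CPM in the pericyte members (0.114-fold, 0.0309 to 0.293). Rgs5, Vtn and Notch3 had ratios of 1.18, 1.19 and 1.20. The Vtn ratio rests on 1 cell, which gave 57 of the 62 Vtn UMIs, while the others had 2, 3 and 0. With the doublet in, the ratios were 0.152 for Kcnj8, 0.101 for Abcc9, 0.872 for Rgs5, 0.783 for Vtn and 1.09 for Notch3, so that Rgs5 and Vtn turned direction. Both groups were split by some of these genes or by Myh11, Acta2 and Tagln, so those values describe the split.

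**Figure D2:**
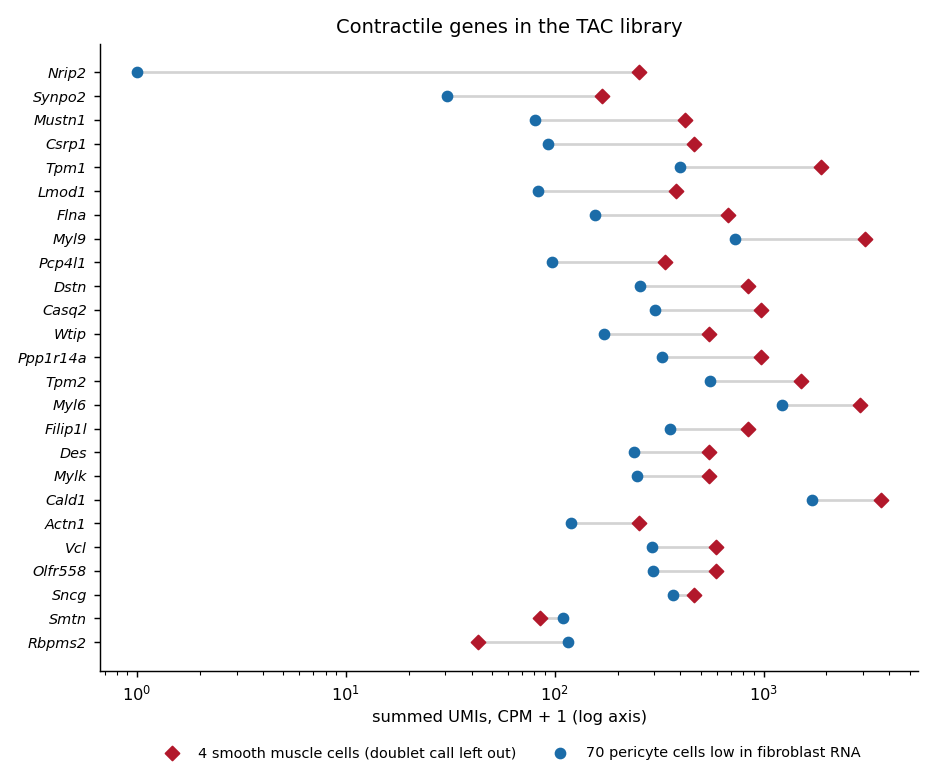
Each row is a contractile gene outside the rule that reached 100 CPM in either group of the TAC library, and the log axis is summed UMIs as CPM + 1. Diamonds are the 4 smooth muscle cells without the doublet call and circles the 70 pericyte members low in fibroblast RNA; 22 of 25 genes lie at least 2-fold higher in the smooth muscle cells, and Sncg, Smtn and Rbpms2 do not.

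Serum response factor with its partner myocardin drives many contractile genes through a site called the CArG box, and the upstream 250 bases of their promoters were searched for it because the contractile genes went together in the smooth muscle cells. The sequences are from RefSeq (GRCm38.p6). The box, which reads alike on both strands, was found in 5 of the 34 contractile list genes with an entry (14.7%) and in 1.62% of all 27025 genes with one. In the 1 smooth muscle rule gene with an entry it had 0 matches. Of the 25 genes measured above, Myl9, Vcl, Filip1l and Myl6 held it, each at least 2-fold higher in the smooth muscle cells without the doublet. So were 22 of all 25, so the direction did not set the genes with the box apart. With the doublet in, Myl9 was 2.86-fold higher, while Vcl, Filip1l and Myl6 were at 1.28, 1.53 and 1.65, short of 2-fold. Each window lies upstream of 1 RefSeq start, and a gene can have several. The Filip1l and Myl6 windows lie inside the annotated spans of those genes, chr16:57353093-57573126 and chr10:128490860-128494145. Their upstream windows, with those of Myl9 and Vcl, follow 5′ to 3′ on the strand of the gene, with the CArG box in capitals.
Myl9 (chr2:156775214-156775463, + strand): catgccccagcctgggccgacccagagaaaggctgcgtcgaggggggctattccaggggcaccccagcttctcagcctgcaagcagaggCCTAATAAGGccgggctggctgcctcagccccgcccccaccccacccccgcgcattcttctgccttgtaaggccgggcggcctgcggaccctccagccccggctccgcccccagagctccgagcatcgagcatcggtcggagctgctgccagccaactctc
Vcl (chr14:20929148-20929397, + strand): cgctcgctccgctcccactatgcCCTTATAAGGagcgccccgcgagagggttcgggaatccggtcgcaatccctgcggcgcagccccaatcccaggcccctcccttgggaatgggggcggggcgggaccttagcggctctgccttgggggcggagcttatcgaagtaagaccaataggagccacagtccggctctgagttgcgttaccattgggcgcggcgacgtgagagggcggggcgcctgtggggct
Filip1l (chr16:57548992-57549241, + strand): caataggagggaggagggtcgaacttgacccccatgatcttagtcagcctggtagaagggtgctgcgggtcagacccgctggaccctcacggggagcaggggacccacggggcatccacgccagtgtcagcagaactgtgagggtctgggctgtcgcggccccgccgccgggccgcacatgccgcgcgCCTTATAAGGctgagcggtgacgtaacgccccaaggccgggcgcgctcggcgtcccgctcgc
Myl6 (chr10:128493010-128493259, - strand): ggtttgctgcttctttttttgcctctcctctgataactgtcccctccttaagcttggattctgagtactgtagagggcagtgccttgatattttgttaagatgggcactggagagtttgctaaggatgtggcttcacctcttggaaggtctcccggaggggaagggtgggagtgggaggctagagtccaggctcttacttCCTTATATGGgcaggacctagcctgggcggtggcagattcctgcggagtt
The box ends 152 bases before the RefSeq start of the window in Myl9, 218 in Vcl, 53 in Filip1l and 41 in Myl6. Vcl and Filip1l share the same 10 letters. A match describes letters in this window and is no sign of binding, and further boxes can lie outside it.

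Among the pericyte members, contractile RNA varied from cell to cell. In TAC, 20 of 90 pericyte members held at least 5 UMIs of Acta2 and Tagln together without the Myh11 UMIs that the smooth muscle rule needs. In sham 1 of 58 did. The cut was not scaled to depth, and the median member had 4667 UMIs in TAC and 2689.5 in sham. Within the 70 TAC members low in fibroblast RNA, 15 were at 5 or more, with a median of 4605 UMIs per cell, and 55 below, with 4146. The 15 cells held 1323 CPM of Myl9 and the 55 cells 507 CPM, a 2.61-fold ratio (1.99 to 3.43). Lmod1 was at 194 CPM in the 15 cells and 40.7 CPM in the 55, and Tpm2, another tropomyosin, at 837 CPM in the 15 and 448 CPM in the 55. Not all of the contractile list was higher in the 15 cells. Mylk had a ratio of 0.786 (0.429 to 1.37), Myl6 of 0.926 (0.726 to 1.17) and Flna of 0.919 (0.434 to 1.81). Kcnj8 was at 2099 CPM in the 15 cells and 3023 CPM in the 55, and Rgs5 at 13821 CPM in the 15 and 14619 CPM in the 55. The split follows values seen in these cells and gets no test.

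Between TAC and sham, Ctgf stood out among the named genes by its high UMI count. It encodes a matricellular protein, also called Ccn2, and lies at chr10:24595442-24598683 on the + strand of mm10. It stood at 2165 CPM in TAC (2042 to 2293) and 241 CPM in sham (182 to 314), and its ratio was 8.96-fold (6.84 to 12). Among the members low in fibroblast RNA it stood at 1694 CPM in TAC and 349 CPM in sham (4.85-fold, 3.27 to 7.50). A Ctgf UMI was seen in 91.1% of TAC and 34.5% of sham members. With each cell thinned to 1900 UMIs the shares were 77.5% of 80 TAC cells (66.8 to 86.1%) and 23.9% of 46 sham cells (12.6 to 38.8%). The cells too shallow to enter, 10 in TAC and 12 in sham, were all low in fibroblast RNA. Thinned shares, here and below, thus rest on a larger part of members with fibroblast RNA than unthinned ones. Thinned in the same way, 10.3% of macrophages in TAC and 1.35% in sham had a UMI, and 83.8% of fibroblasts in TAC and 23.8% in sham. Macrophages had median 9852 UMIs in TAC and 4815.5 in sham. Ctgf was thus higher in TAC in each of those classes, from 2782 CPM in TAC and 279 CPM in sham fibroblasts down to 159 CPM in TAC and 10.9 CPM in sham macrophages.

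Contractile genes were among those higher in TAC, and few sham cells held Acta2 at all. Acta2, at chr19:34241090-34255590 on the minus strand, stood at 570 CPM in TAC (508 to 638), from 307 UMIs in 45 of 90 cells, and at 83.4 CPM in sham (50.2 to 130), from 19 UMIs in 2 of 58 cells. One sham cell gave 18 of the 19 UMIs, and without it the sham level was 4.42 CPM. Tagln stood at 349 CPM in TAC, from 37 cells, and at 35.1 CPM in sham, from 8 UMIs of the same 1 cell. That cell had 1 Myh11 UMI, 1 short of the smooth muscle rule. Among those low in fibroblast RNA, Acta2 was at 761 CPM in TAC and 255 CPM in sham. There 1 TAC cell gave 59 of the 231 TAC Acta2 UMIs and 42 of the 114 TAC Tagln UMIs. Scrublet called this TAC cell a doublet, and it was kept in these values. Fibroblasts held 27.0 CPM of Acta2 in TAC and 6.71 CPM in sham. With each cell thinned to 1900 UMIs, 38.8% of TAC and 2.17% of sham members had an Acta2 UMI. Unthinned, 50% of TAC and 3.45% of sham members did, and at most 3.16% of thinned fibroblasts or macrophages of either library. The sham cell with 18 Acta2 UMIs had 1415 UMIs in all and was too shallow to enter the thinned share. Moving the 5 smooth muscle cells out lowered these TAC levels: with them counted in, Acta2 stood at 889 CPM in TAC.

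Myl9 does not enter the rule and gave the same direction. It stood at 465 CPM in TAC and 114 CPM in sham over all members (4.07-fold, 2.71 to 6.35), and at 729 CPM in TAC and 295 CPM in sham in those low in fibroblast RNA (2.47-fold, 1.59 to 4.01). No single cell held more than 20 of its 250 TAC UMIs or 3 of its 26 sham UMIs. In the fibroblast class its log2 ratio was 0.25. Actn1, an alpha-actinin that anchors actin filaments, stood at 119 CPM in TAC and 35.1 CPM in sham over all members, and at 119 CPM in TAC and 67.2 CPM in sham in those low in fibroblast RNA, where the interval of 0.691 to 5.77 spans 1. Lmod1 stood at 53.9 CPM in TAC and 13.2 CPM in sham over all members, from 3 sham UMIs, and its interval in those low in fibroblast RNA, 0.624 to 10.6, spans 1. Over the contractile list outside the rule, 7 of 25 measured genes were at least 2-fold higher in TAC and 1 lower, where 6.3% of all 4476 measured genes were higher and 6.61% lower. Without the members carrying fibroblast RNA 5 of 26 were higher and 4 lower, where 10.9% of 4972 genes were higher and 16.1% lower. The list's median log2 ratio was 0.68 in all members and 0.11 in those low in fibroblast RNA, while the median over all measured genes was -0.05 and -0.20. Tpm1 stood at 305 CPM in TAC and 294 CPM in sham, and the interval of its ratio spans 1 in all members (0.775 to 1.40) and in those low in fibroblast RNA (0.534 to 1.15). The share of the contractile list that was higher lay above that of all genes in both sets, but in the members low in fibroblast RNA nearly as many of its genes were lower.

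**Figure D3:**
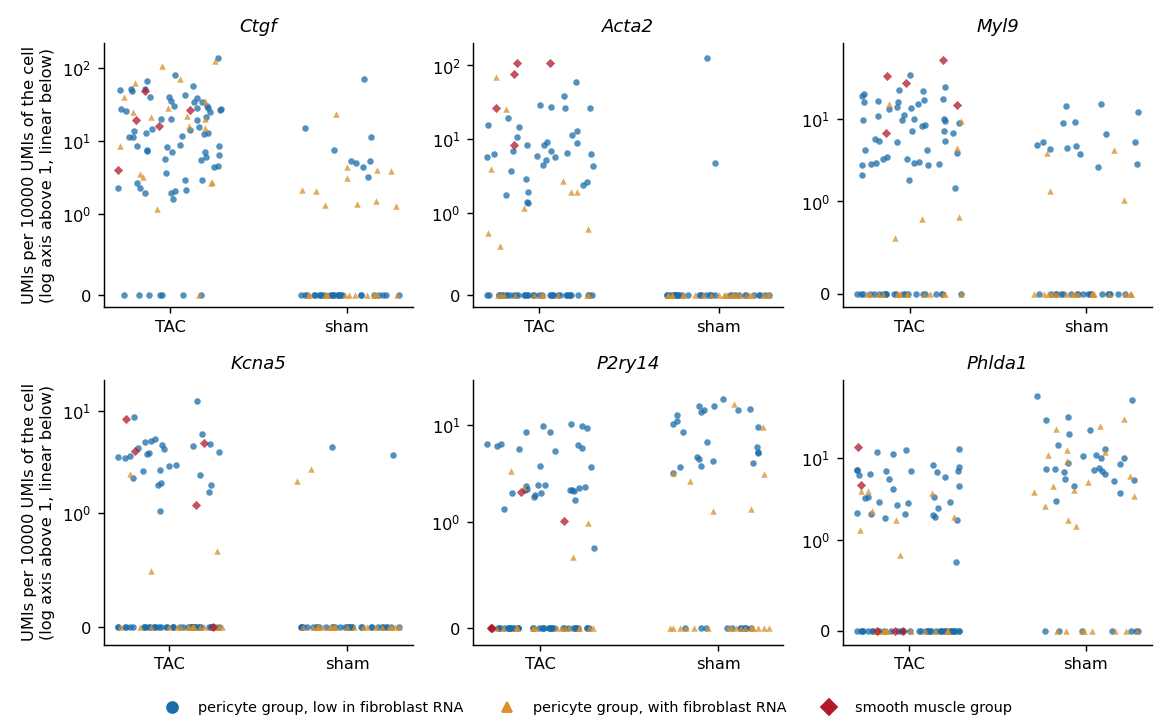
Each point is 1 member, at its UMIs of the named gene per 10000 UMIs of the cell, on an axis that is logarithmic above 1 and linear below; TAC is on the left of each panel and sham on the right. Acta2 was seen in 45 of 90 TAC pericyte members and 2 of 58 sham ones, and the smooth muscle cells of the TAC library reach 109 in the Acta2 panel, against 127 in the highest sham pericyte member.

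Among channels, Kcna5 was higher in TAC. It encodes a voltage-gated potassium channel that limits depolarisation of vascular muscle, and stood at 98.5 CPM in TAC and 26.3 CPM in sham (3.74-fold, 1.61 to 10.6). Its level in those low in fibroblast RNA was 155 CPM in TAC and 26.9 CPM in sham, where 2 UMIs were seen. A Kcna5 UMI was seen in 34.4% of TAC and 6.90% of sham members, and after thinning in 18.8% of TAC (10.9 to 29.0%) and 8.70% of sham members (2.42 to 20.8%), so that the intervals of the thinned shares overlapped. Endothelial cells also held Kcna5, at 153 CPM in TAC and 55.0 CPM in sham. The list of ion channels and calcium handling as a whole had 3 of 22 measured genes higher and 1 lower in all members, where 6.3% of all genes were higher and 6.61% lower. In those low in fibroblast RNA 3 of 24 were higher and 5 lower, near the 10.9% and 16.1% of all genes.

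Receptors went both ways. P2ry14 stood at 113 CPM in TAC (86.7 to 146) and 285 CPM in sham (220 to 364), a 0.397-fold ratio (0.275 to 0.572). Its level in those low in fibroblast RNA was 178 CPM in TAC and 618 CPM in sham (0.288-fold, 0.191 to 0.437). Its thinned shares were 20.0% of TAC and 45.7% of sham members, against 40% of TAC and 51.7% of sham members unthinned, and at most 1.36% of thinned fibroblasts or macrophages held it. Agtr1a, the angiotensin II receptor through which vessels constrict, stood at 40.9 CPM in TAC and 74.6 CPM in sham, and in the members low in fibroblast RNA at 72.5 CPM in TAC and 215 CPM in sham. Calcrl, the receptor of the vasodilator peptides CGRP and adrenomedullin, stood at 20.4 CPM in TAC and 70.3 CPM in sham, below its level in endothelial cells, 219 CPM in TAC and 254 CPM in sham. In the members low in fibroblast RNA it had 4 TAC and 3 sham UMIs. Adora2b, an adenosine receptor, stood at 50.2 CPM in TAC and 13.2 CPM in sham, where 3 UMIs were seen, and its interval in those low in fibroblast RNA, 0.799 to 27.7, spans 1. The endothelin receptor Ednra stood at 139 CPM in TAC and 70.3 CPM in sham over all members, and at 214 CPM in TAC and 121 CPM in sham in those low in fibroblast RNA (1.77-fold, 0.879 to 4.05). Of the list of vasoactive receptors, 1 of 22 measured genes was higher and 4 lower in all members, where 6.3% of all genes were higher and 6.61% lower. In those low in fibroblast RNA 3 of 21 were higher and 6 lower, beside 10.9% and 16.1% of all genes.

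Pdgfrb, the receptor that holds pericytes on capillaries, came out near even once fibroblast RNA was set aside. It stood at 1106 CPM in TAC and 790 CPM in sham over all members, and at 1671 CPM in TAC and 1746 CPM in sham in those low in fibroblast RNA, where the interval of the ratio was 0.788 to 1.17. Notch3, which the rule used, had a log2 ratio of 0.75 in all members and 0.22 in those low in fibroblast RNA. Of 11 measured genes of the Notch pathway 0 were at least 2-fold higher and 1 was lower (6.3% and 6.61% of all genes), with a median log2 ratio of -0.46 beside -0.05 over all genes. With fibroblast RNA set aside 0 of 12 were higher and 4 lower, Hey1, Notch2, Nrarp and Notch1, beside 10.9% higher and 16.1% lower of all genes, with a median of -0.70 beside -0.20. Hey1, a repressor that Notch signalling turns on, stood at 35.3 CPM in TAC and 83.4 CPM in sham, from 19 UMIs in each library. Hes1, another such repressor, stood at 312 CPM in TAC and 452 CPM in sham (0.690-fold, 0.537 to 0.891), and in those low in fibroblast RNA the interval of 0.502 to 1.02 spans 1. Rgs4, from the family of Rgs5, stood at 405 CPM in TAC and 351 CPM in sham, and its interval spans 1 in all members (0.889 to 1.51) and in those low in fibroblast RNA (0.610 to 1.11).

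**Figure D4:**
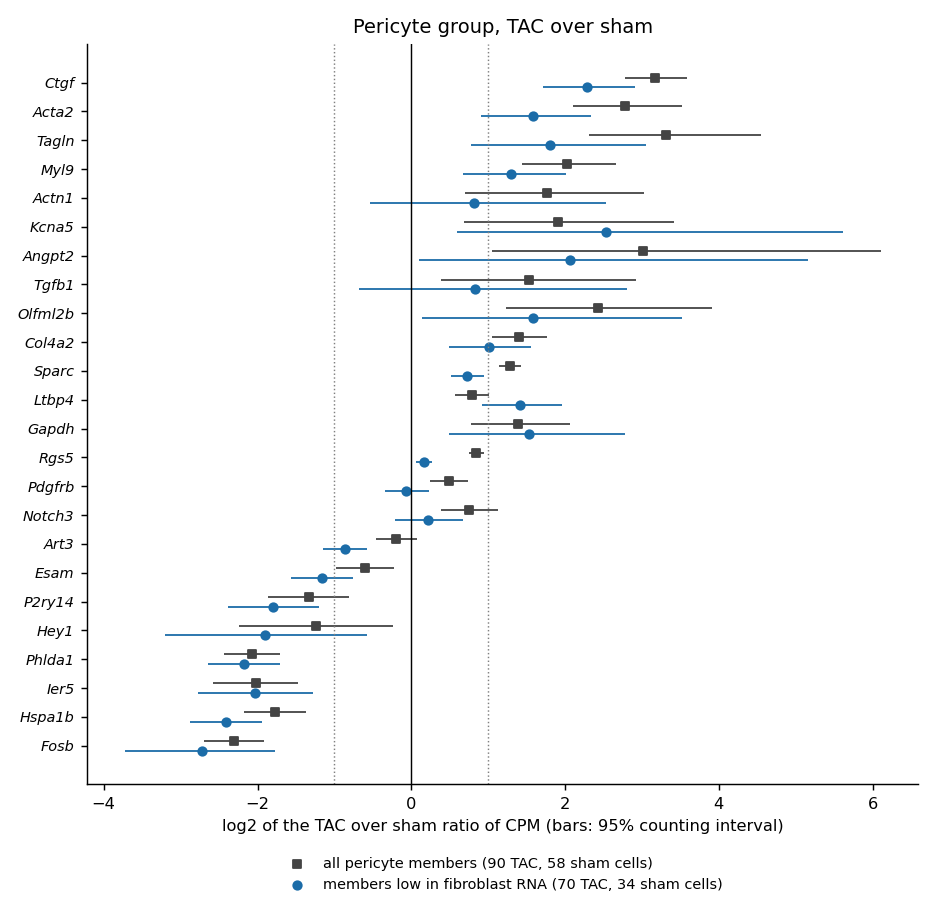
Points are log2 ratios of CPM in TAC over sham for 24 genes discussed in the text, with 95% counting intervals as bars; squares are all pericyte members (90 TAC, 58 sham cells) and circles those low in fibroblast RNA (70 TAC, 34 sham cells). Dotted lines mark 2-fold. Ctgf, Acta2, Tagln, Myl9 and Kcna5 lie right of 0 in both sets and P2ry14, Phlda1, Ier5, Hspa1b and Fosb left of it.

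Genes of the basement membrane and matrix were next. Col4a2, a chain of the type IV collagen that sheathes pericytes, stood at 901 CPM in TAC and 342 CPM in sham (2.63-fold, 2.07 to 3.39), and in the members low in fibroblast RNA at 943 CPM in TAC and 470 CPM in sham (2.01-fold, 1.41 to 2.94). Its partner chain Col4a1 stood at 1485 CPM in TAC and 887 CPM in sham, with log2 ratios of 0.74 in all members and 0.92 in those low in fibroblast RNA. The basement membrane list did not share this direction over all members, where 2 of 18 measured genes were higher and 2 lower (6.3% and 6.61% of all genes). Its median log2 ratio was -0.23. In the members low in fibroblast RNA 3 of 14 were higher and 0 lower (10.9% and 16.1% of all genes), with a median of 0.59. Sparc, a collagen-binding matricellular protein, stood at 5246 CPM in TAC and 2151 CPM in sham over all members (2.44-fold, 2.21 to 2.69), and at 4585 CPM in TAC and 2780 CPM in sham in those low in fibroblast RNA (1.65-fold, 1.42 to 1.92). Members low in fibroblast RNA also held more Ltbp4, which tethers latent TGF-beta, at 1256 CPM in TAC and 470 CPM in sham (2.67-fold, 1.89 to 3.89), against 1.72-fold (1.48 to 2.02) over all members. Serpine2, a protease inhibitor, stood there at 666 CPM in TAC and 148 CPM in sham (4.51-fold, 2.47 to 9.17), against 1.48-fold (1.17 to 1.89) over all members. Loxl2, a collagen cross-linker, stood there at 129 CPM in TAC and 40.3 CPM in sham (3.19-fold, 1.01 to 16.1, from 3 sham UMIs) and was 2.80-fold higher (1.55 to 5.47) over all members. Of 34 measured genes of fibrillar collagens and matricellular proteins, 10 were higher and 2 lower in all members (6.3% and 6.61% of all genes), and 13 of 23 higher and 1 lower in those low in fibroblast RNA (10.9% and 16.1% of all genes). In the same set 4 of 9 measured fibroblast markers were higher and 0 lower, with a median of 0.99, and 1 of the 9 stayed within the free-RNA limit described next. Of the 23 matrix genes, 12 stayed within that limit, at most 4 times the members' level in another class. In the fibroblast class 24 of 38 were higher and 0 lower, where 4.02% of 3633 genes were higher and 2.73% lower. That class had a median log2 ratio of 1.14 for the list, beside 0.65 in all pericyte members and 1.10 in those low in fibroblast RNA.

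Growth factors of the vessel wall were measured at low counts. Angpt2, which loosens vessels by competing at the endothelial receptor Tie2, stood at 70.6 CPM in TAC, from 38 UMIs in 26 cells, and at 8.78 CPM in sham, from 2 UMIs in 2 cells, for a ratio of 8.04 (2.08 to 68.8). The ratio in those low in fibroblast RNA was 4.17 (1.07 to 35.8). After thinning, 16.2% of TAC (8.95 to 26.2%) and 2.17% of sham members (0.0550 to 11.5%) held it, against 28.9% of TAC and 3.45% of sham members unthinned, and under 1% of thinned fibroblasts and macrophages. Tgfb1 stood at 89.2 CPM in TAC and 30.7 CPM in sham, and in the members low in fibroblast RNA its interval of 0.625 to 6.97 spans 1. Of 18 measured growth and survival factors 3 were higher and 5 lower (6.3% and 6.61% of all genes), and of 15 in the members low in fibroblast RNA 2 were higher and 4 lower (10.9% and 16.1% of all genes).

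Several stress-response genes were lower in TAC. Phlda1, a growth-factor-induced regulator, stood at 191 CPM in TAC and 804 CPM in sham (0.238-fold, 0.185 to 0.305), and in the members low in fibroblast RNA at 244 CPM in TAC and 1101 CPM in sham. Ier5, an immediate early gene, stood at 85.5 CPM in TAC and 347 CPM in sham, and in the members low in fibroblast RNA at 105 CPM in TAC and 429.8 CPM in sham. The heat shock gene Hspa1b stood at 165 CPM in TAC and 566 CPM in sham, where 1 sham cell gave 39 of 129 UMIs, and the log2 ratio without that cell was -1.27. In the members low in fibroblast RNA its log2 ratio was -2.40, and -1.64 without that cell. Fosb, a member of the AP-1 factors, stood at 151 CPM in TAC and 742 CPM in sham, but among the members low in fibroblast RNA its 26 sham UMIs lay in 3 cells. Of 22 measured immediate early genes 1 was higher and 14 lower over all members (6.3% and 6.61% of all genes), with a median log2 ratio of -1.26. With fibroblast RNA set aside 6 of 17 were higher and 2 lower (10.9% and 16.1% of all genes), with a median of 0.70, so the list's median took the other sign. The fibroblast class, with 4 of 25 higher and 8 lower (4.02% and 2.73% of all genes) and a median of -0.75, had the sign of all members. Of 15 measured heat shock genes 4 were lower and 0 higher in all members (6.61% and 6.3% of all genes), with a median of -0.53, and 4 lower and 1 higher in those low in fibroblast RNA (16.1% and 10.9%), with a median of -0.34 beside -0.20 over all genes.

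Other lists also turned with the fibroblast RNA. The inflammatory mediators had 0 of 20 genes higher and 10 lower in all members (6.3% and 6.61% of all genes), with a median of -0.90. In the members low in fibroblast RNA 1 of 12 was higher and 2 lower, near the 10.9% and 16.1% of all genes, with a median of 0.07. The chemokine Cxcl1 stood at 110 CPM in TAC and 1036 CPM in sham over all members, and at 42.8 CPM in TAC and 121 CPM in sham in those low in fibroblast RNA, 7 of whose 9 sham UMIs were in 1 cell. Cebpd and Cebpb, transcription factors that glucocorticoids and cytokines induce, had log2 ratios of -0.77 and -0.72 over all members, and of 1.86 and 1.78 in the members low in fibroblast RNA. Fibroblast markers themselves had a median of -0.71 in all members and 0.99 in those low in fibroblast RNA.

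Some metabolic genes were higher in TAC. Gapdh, a glycolytic enzyme, stood at 288 CPM in TAC and 110 CPM in sham (2.62-fold, 1.71 to 4.18), and in the members low in fibroblast RNA at 310 CPM in TAC and 107 CPM in sham (2.88-fold, 1.41 to 6.88). Of the glycolysis and hypoxia list 5 of 21 genes were higher and 1 lower (6.3% and 6.61% of all genes), with a median of 0.53. In the members low in fibroblast RNA 7 of 22 were higher and 2 lower (10.9% and 16.1% of all genes), with a median of 0.26. Of 48 measured genes of oxidative phosphorylation 7 were higher and 0 lower over all members (6.3% and 6.61% of all genes), with a median of 0.37. In those low in fibroblast RNA 8 of 49 were higher and 2 lower (10.9% and 16.1% of all genes), with a median of 0.05. Uqcr10, a subunit of respiratory complex III, stood at 212 CPM in TAC and 92.2 CPM in sham over all members, and at 244 CPM in TAC and 94.0 CPM in sham in those low in fibroblast RNA. The fibroblast class had medians of 0.30 for glycolysis and 0.20 for oxidative phosphorylation.

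**Figure D5:**
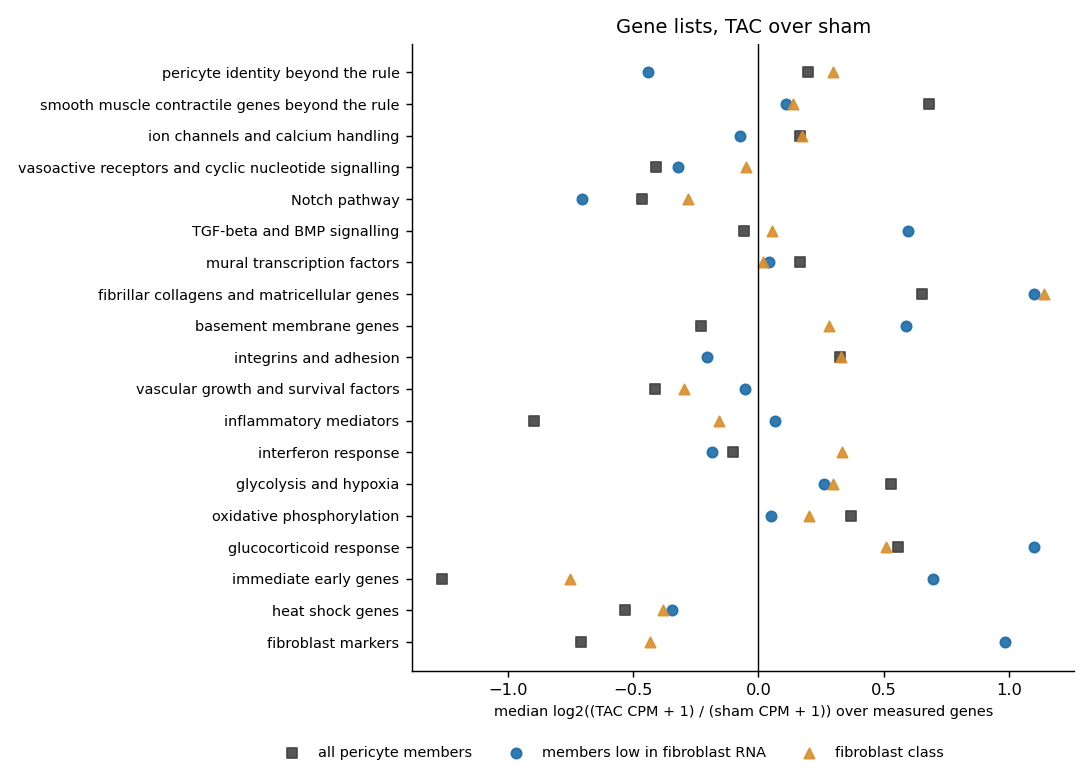
Points are the median log2 ratio of TAC over sham across the measured genes of each list, for all pericyte members (squares), members low in fibroblast RNA (circles) and the fibroblast class (triangles). The medians over all measured genes were -0.05, -0.20 and -0.07. The immediate early genes lie at -1.26, 0.70 and -0.75 and the fibrillar collagens and matricellular genes at 0.65, 1.10 and 1.14.

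The remaining genes were named by size of ratio alone. Higher in TAC over all members, beside those above, were Adamtsl2, Mfap4, Tmem258, Olfml2b, Clec2d, Sox4 and Meox1, with log2 ratios of 3.43, 3.32, 2.71, 2.38, 2.36, 2.27 and 1.97. Olfml2b stood at 141 CPM in TAC and 26.3 CPM in sham and Clec2d at 184 CPM in TAC and 35.1 CPM in sham, with log2 ratios of 1.57 and 1.49 in the members low in fibroblast RNA and of 0.48 and 0.81 in the fibroblast class. Mfap4 and Meox1 were seen in 21.1% and 22.2% of TAC members and rested on those with fibroblast RNA, since in the members low in it Mfap4 had 4 TAC UMIs and Meox1 6. Lower in TAC over all members, beside those above, were Scara5, Socs3, Penk, Gsta3, Efemp1, Clec3b, Gadd45a, Adamts5 and Cyp27a1, with log2 ratios of -4.02, -3.62, -3.42, -2.81, -2.63, -2.31, -2.29, -2.08 and -2.06. Scara5 and Clec3b are fibroblast markers. Once fibroblast RNA was set aside, Penk and Efemp1 had no UMI in either library and Adamts5 had a log2 ratio of -0.03. Gadd45a and Cyp27a1 were at -2.33 and -2.65 there, on 3 TAC UMIs each.

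By the same rule the members low in fibroblast RNA gave another set of names, most on few sham UMIs. Olfr1033, Pink1 and Wwc2 had 38, 36 and 35 TAC UMIs and none in sham, and against the floor of 3 counts were at least 3.11-fold, 2.95-fold and 2.86-fold higher. H2afj, Ube2m, Slc50a1, Ube2n, Ahnak and Cdkn1a, with Kcna5, Tmem258 and Ctgf, completed the 12, and Cdkn1a, the cell cycle inhibitor p21, stood at 185 CPM in TAC and 40.3 CPM in sham, where 3 UMIs were seen. Among the lower ones were Fut8, Fopnl, N4bp1, Hspa1b, Phlda1, Ier5, Fam212b, Tdp2, Nkap, Dhx30 and Fabp7. Esam stood there at 491 CPM in TAC and 1101 CPM in sham (0.446-fold, 0.338 to 0.591) and the ADP-ribosyltransferase family gene Art3 at 1104 CPM in TAC and 2015 CPM in sham (0.548-fold, 0.451 to 0.669). Of the pericyte identity list 1 of 26 genes was higher and 2 lower in this set, below the 10.9% and 16.1% of all genes, with a median of -0.44 beside -0.20 over all genes. In all members 1 of 26 was higher and 1 lower, below the 6.3% and 6.61% of all genes, with a median of 0.20.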

How the data were processed

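RNA of heart non-cardiomyocytes was measured in 1 TAC and 1 sham library with Chromium Next GEM 3′ v3.1 chemistry, per the labels' protocols. Each library's deposited file is a sparse matrix of UMI counts, unnormalised, that per the file headers came from Cell Ranger 3.1.0. The submitters' processing notes name mm10 and, without a role, Seurat. How doublets were treated before deposit is not given. Rows that share a symbol were summed, which gave 31017 symbols; 30934 of 31053 gene IDs matched GENCODE vM21, the source of coordinates.

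Members followed the rule in the report; cells that met both rules were smooth muscle. The members, 29 gene lists and alternatives were chosen with earlier results of these data known. Scrublet and Leiden clustering (30 components, 15 neighbours, resolution 1, without integration) ran in scanpy 1.11.5. Doublets were not removed from the main values: 5 TAC and 0 sham pericyte members and 1 smooth muscle cell were called. The fibroblast, endothelial and macrophage classes were rebuilt from marker genes and left out members; the authors' own cell names were not used. Ratios between libraries were read for genes with at least 50 CPM in either library, 100 CPM for smooth muscle, and a gene with 0 UMIs was bounded by a floor of 3 counts over the group. Called means at least 2-fold.

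Named were the 12 largest ratios in each direction among genes with at least 100 CPM, 10 UMIs and 20% of cells in the library where higher, and no other class above 4 times their level there (the free-RNA limit), without mitochondrial, ribosomal protein, haemoglobin, Y-linked, Xist and unnamed genes, and up to 4 genes of a list by the same limit. Other genes named in the report were picked from the lists after their values were seen. Shares of cells were also read after thinning each cell to 1900 UMIs, the 20th percentile of the shallower library. Cells below that depth were left out. The ratio step was run on simulated Poisson counts. These hold no spread between cells, so that run checks the computation and not how far the intervals hold for these cells. A 3′ count without gene length gives no level between genes. The UMI totals set the precision: 3 counts were 5.57 CPM in TAC and 13.2 CPM in sham for all pericyte members, and 9.89 CPM in TAC and 40.3 CPM in sham for those low in fibroblast RNA. A few genes that met the naming rule are not reported here.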

Additional observations from a re-analysis of the deposited data

How the results depend on the processing

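The pericyte share stayed higher in TAC under each alternative, at 1.47 to 2.05 times the sham share in all but 1. After thinning to 3000 UMIs before the rule, which leaves out cells with fewer UMIs, it was 3.89 times. The counts of genes at least 2-fold apart, 282 higher and 296 lower, moved beyond 1.5-fold under these settings: 542 and 802 with members carrying fibroblast RNA left out, 825 and 905 after thinning, 767 and 713 at a minimum of 20 CPM, 54 and 64 at 200 CPM, 2879 and 1761 with no minimum, and 445 lower with the mean of per-cell CPM. The minimum changes the genes measured, 7905 at 20 CPM, 937 at 200 CPM and 13132 with none against 4476, and thinning leaves 67 TAC and 16 sham members; for the other settings the cause was not tested. The immediate early list's median was 0.70 with fibroblast RNA left out, against -1.26, and the macrophage list's 6.65 after thinning, against -2.79. Of 1552 values of single genes over all alternatives, 1416 stayed within their counting error, 136 moved beyond it and 0 changed sign after being past 2-fold. A gene's ratio cannot change with the minimum CPM or when cells that met both rules are left out, so those settings could only stay. With fibroblast RNA left out 46 genes moved and 51 stayed, and after thinning 37 moved and 60 stayed. Of 365 list medians, 343 stayed. Depth limits the sham members most, whose 34 cells low in fibroblast RNA hold 74457 UMIs. Giving members low in fibroblast RNA beside all members, and leaving the doublet out of the smooth muscle cells, were chosen after seeing the data. With cells that met both rules counted as pericytes or left out, 0 smooth muscle cells remained. No replicate could be left out, and no smooth muscle counts of genes apart between TAC and sham could be given. No paired analysis was possible because each group is 1 library.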
